A study of Mus musculus with 8 samples.

Results

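The genes described here are the DNA repair genes of the mouse brain, taken as the protein-coding genes whose symbols begin with the repair families Xrcc, Ercc, Fanc, Rad1, Rad2 or Rad5 and a digit, Msh, Mlh, Parp or Neil, together with Ogg1, Lig1, Lig3, Lig4, Polb, Polh, Poli, Polk and Poll. The rule used the symbol alone and no measured value, and it found 73 members among 22430 genes listed (21571 of them protein coding). RNA was taken from 8 male C57Bl/6JRj mice with no treatment or engineered allele named, 4 of 6 months (6m) and 4 of 24 months (24m). The samples are labelled whole brain, and the authors describe dissecting and homogenising whole hemispheres. Polyadenylated RNA was sequenced from directional libraries and counted per gene. The comparison asks which repair pathways differed in transcript level between young-adult and aged brain.

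Cells mend DNA by several routes, each suited to a kind of damage. Base excision repair removes single oxidised or deaminated bases, nucleotide excision repair cuts out bulky lesions and has a branch coupled to transcription, and mismatch repair acts behind replication. Double-strand breaks are rejoined by end joining or, in cells that have copied their DNA, by homologous recombination, with the Fanconi anaemia pathway handling crosslinks. Neurons do not divide, have high oxidative metabolism, and are known to depend on base excision, transcription-coupled repair and end joining, while recombination and replication-linked factors are best known from dividing cells.

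The 8 libraries held 63460940 to 103462414 counts, 24m replicate 1 being the deepest. Levels are given as CPM (counts per 1e+06) of a library size scaled by trimmed mean of M values (TMM), always in the order of replicates 1 to 4. Calls required 2 things, an adjusted p (Benjamini-Hochberg, quasi-likelihood test of edgeR) no higher than 0.05 and a log2 fold change (24m over 6m) of at least 0.58 in size. Each library was a separate male, so p-values measure the spread between animals of 1 sex and 1 strain. The labelled tissue carried its markers: 10 neuronal genes summed to 4999 to 5459 CPM in 6m and 5678 to 6015 CPM in 24m, and no marker of neurons, astrocytes or oligodendrocytes was at 0 in any library. One library stood apart, 24m replicate 1, whose Spearman correlation across genes was 0.979 on average with its own age and 0.978 with 6m. It lay nearest to 6m among the 24m libraries in 12 of the 13 members called higher and in 11 of the 12 called lower, against 86.4% and 78% of all genes called higher and lower. Without it 13 members were called higher and 15 lower (18.3% and 21.1%, against 27.8% and 21.9% of all genes). In that fit 9 members that otherwise did not pass did so on adjusted p alone, 6 of them with positive values (Lig3 0.20, Mlh3 0.34, Msh6 0.48, Lig4 0.51, Rad50 0.45, Ercc6l2 0.53) and 3 with negative ones (Ercc8 -0.32, Fancc -0.32, Fancg -0.29). In whole tissue, fewer cells of a type and less RNA per cell cannot be told apart.

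Repair genes moved in both directions; the share called higher was below that of all genes tested, the share called lower depended on the fit, and no test of these differences was run. Of the 73 members, 71 passed the filter of more than 5 counts in at least 4 libraries, and 25 of these (35.2%) were called, against 43.6% of the 16730 genes tested. Called higher at 24m were 13 members (18.3%), against 25.3% of all genes, and called lower were 12 (16.9%), against 18.3% of all genes. By adjusted p alone the picture tilted downwards, with 15 members higher (21.1%, against 32.7% of all genes) and 27 lower (38%, against 29.9% of all genes). In 14 members (19.7%) every 24m library lay above every 6m library, against 28.4% of all genes, and in 25 members (35.2%) every 24m library lay below, against 26.8% of all genes. The median log2 fold change was -0.13 over the members and 0.00 over all genes, and scaling by library totals alone moved both medians up, to 0.08 and 0.21. Called lower were 18 members with the trend over gene length removed (25.4% against 15% of all genes), 16 with the GC trend removed (22.5% against 17.4%), 22 by DESeq2 on quantile-normalised counts (31% against 23.3%) and 6 by library totals (8.45% against 10.4%). In the same fits 9, 11, 8 and 16 members were called higher (12.7% against 22.7%, 15.5% against 25%, 11.3% against 21.4% and 22.5% against 32.6% of all genes). The 2 members below the filter were Neil3, a glycosylase known from dividing cells (1 to 5 counts per library), and Msh4, a meiotic gene (0 to 6 counts per library).

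**Figure D1:**
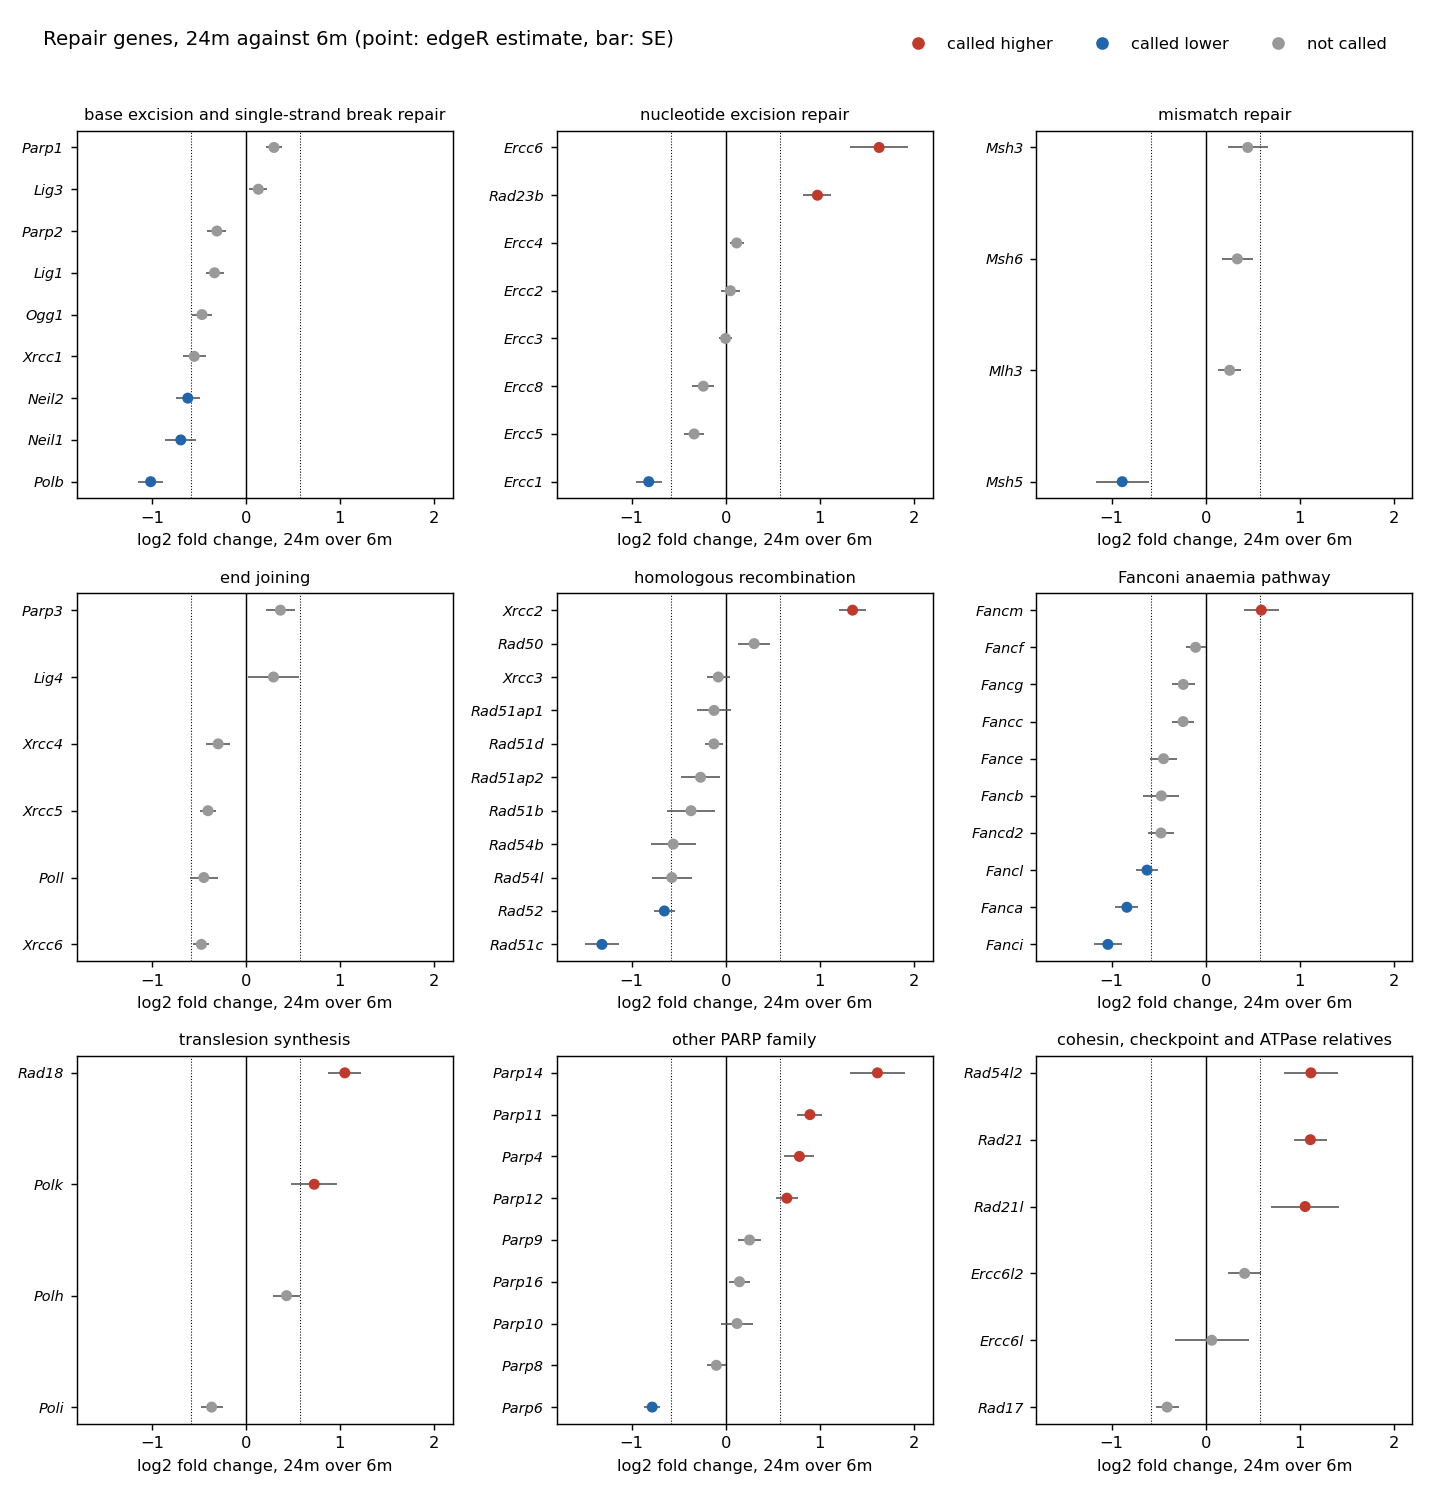
Log2 fold change (24m over 6m, horizontal axis) of 67 of the 71 tested repair genes, 1 panel per pathway, with the edgeR standard error as a bar and dotted lines at -0.58 and 0.58. Base excision and Fanconi anaemia genes lie mostly left of 0 (medians -0.47 and -0.46). Translesion genes and the mixed list of cohesin, checkpoint and ATPase relatives lie mostly right of it (medians 0.58 and 0.74).

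Base excision and single-strand break repair genes shifted mostly downwards: 7 of the 9 tested members lay lower at 24m in every library (against 26.8% of all genes), 1 lay higher in every library (28.4% of all genes), and the median log2 fold change was -0.47. Called lower were 3 (Polb, Neil1, Neil2; 33.3%, against 18.3% of all genes), called higher none (25.3% of all genes), and by adjusted p alone 7 were lower and 1 higher (29.9% and 32.7% of all genes). The median stayed negative under every scaling, filter and left-out library tried, between -0.56 and -0.26, while 1 member in place of 3 was called lower by library totals or with the GC trend removed. Polb (ENSMUSG00000031536, chr8:23117532-23143575, minus strand), the polymerase that fills the single-base gap, had 72.0, 65.8, 73.1 and 79.6 CPM in 6m, then 45.9, 34.6, 33.5 and 29.9 CPM in 24m. Its 24m levels did not overlap those of 6m, and it fell to 0.496 of the 6m level (log2 fold change -1.01 ± 0.13 (SE), edgeR adjusted p = 0.000223). Neil1 (ENSMUSG00000032298, chr9:57050072-57055707, minus strand), a glycosylase that excises oxidised pyrimidines, had 15.4, 13.4, 14.7 and 14.5 CPM in 6m, then 12.1, 8.57, 8.45 and 6.67 CPM in 24m. It fell as well (log2 fold change -0.69 ± 0.17 (SE), edgeR adjusted p = 0.00528), with 24m replicate 1 nearest to 6m. Neil2, a glycosylase of the same family with a preference for open DNA, stood at 2.96, 3.59, 3.18 and 3.45 CPM in 6m, then 1.93, 2.23, 2.39 and 2.04 CPM in 24m, again without overlap (log2 fold change -0.62 ± 0.13 (SE), edgeR adjusted p = 0.00257). Both glycosylases lay near the fold threshold: Neil1 lost its call without 24m replicate 4 (-0.57) and Neil2 without 6m replicate 2 (-0.57) or 24m replicate 1 (-0.56), and with the trend over gene length removed Neil1 stood at -0.28. Neither was called by library totals (Neil1 -0.49, Neil2 -0.40) or with the GC trend removed (-0.52 and -0.57).

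The remaining members of the pathway passed on adjusted p alone or not at all. Xrcc1, the scaffold that holds ligase and polymerase at the nick, measured 71.8, 67.6, 66.8 and 75.1 CPM in 6m, then 59.3, 46.6, 47.9 and 38.4 CPM in 24m (log2 fold change -0.55 ± 0.12 (SE), edgeR adjusted p = 0.00373). It just missed the fold threshold and passed it without 24m replicate 1 (-0.66) or with the length trend removed (-0.68), and stood at -0.34 by library totals. Ogg1, the glycosylase for 8-oxoguanine, measured 14.5, 14.7, 14.6 and 14.6 CPM in 6m, then 12.4, 10.5, 10.1 and 9.16 CPM in 24m (log2 fold change -0.47 ± 0.11 (SE), edgeR adjusted p = 0.0044). Its 4 young libraries were almost identical and all aged ones lay below them; it was called lower by quantile-normalised DESeq2 (-0.70) and stood at -0.22 with the length trend removed. Lig1 and Parp2 also had lower values (-0.33 and -0.31), while Lig3, the ligase that partners XRCC1, did not pass (0.13, edgeR adjusted p = 0.242). By library totals Lig1 and Parp2 did not pass (-0.12 and -0.09) and Lig3 passed on adjusted p alone (0.36), while with the length trend removed Parp2 did not pass (-0.22) and Lig3 had a negative value (-0.10). Parp1, the main sensor of strand breaks, went the other way, from 68.0, 74.1, 73.9 and 73.2 CPM in 6m to 78.9, 88.9, 93.7 and 94.2 CPM in 24m (log2 fold change 0.30 ± 0.08 (SE), edgeR adjusted p = 0.00971). Per kilobase of exon, Xrcc1 stood at 10.5 CPM and Parp1 at 9.92 CPM in 6m, and at 7.14 and 12.2 CPM in 24m; their libraries overlapped in 6m, where neither stood above the other in all 4. With the length trend removed Parp1 did not pass (0.12, edgeR adjusted p = 0.158).

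Nucleotide excision repair held 2 strong rises and 1 clear fall among members of smaller fold change. Among 9 tested members 2 were called higher (Ercc6, Rad23b; 22.2%, against 25.3% of all genes) and 1 lower (Ercc1; 11.1%, against 18.3%), with a median of 0.00 that became 0.21 by library totals and -0.36 once the length trend was removed. Ercc6 (ENSMUSG00000054051, chr14:32235451-32302947, plus strand), which encodes CSB, the remodeller that starts transcription-coupled repair, had 1.6, 2.22, 2.22 and 1.20 CPM in 6m, then 2.92, 5.58, 5.96 and 7.99 CPM in 24m. It rose 3.10-fold (log2 fold change 1.63 ± 0.31 (SE), edgeR adjusted p = 0.00147), with no overlap and with the aged animals themselves spread widely. Rad23b (ENSMUSG00000028426, chr4:55349979-55392237, plus strand), which stabilises the damage sensor XPC, was at 50.0, 66.5, 58.6 and 49.0 CPM in 6m, then 84.9, 108, 114 and 134 CPM in 24m, a 1.97-fold rise (log2 fold change 0.98 ± 0.15 (SE), edgeR adjusted p = 0.000485). Ercc1 (ENSMUSG00000003549, chr7:19075881-19090450, plus strand), the partner of the XPF nuclease that cuts 5′ of the lesion, had 66.2, 60.4, 62.6 and 70.0 CPM in 6m, then 47.5, 34.7, 34.9 and 29.8 CPM in 24m. It fell with no overlap (log2 fold change -0.82 ± 0.14 (SE), edgeR adjusted p = 0.000757). The TFIIH helicase genes Ercc2 and Ercc3 were close to level at 0.05 and 0.00, Ercc4 (XPF) was at 0.12, Ercc8 (CSA, which acts with CSB) at -0.24, and Ercc5 (XPG, the 3′ nuclease) passed on adjusted p alone at -0.34. By library totals Ercc2, Ercc3 and Ercc4 passed on adjusted p alone (0.27, 0.21 and 0.34) and Ercc5 did not (-0.12). With the length trend removed Ercc3 (0.32) passed on adjusted p alone, as did Ercc4, whose sign turned (-0.36), and Ercc8 (-0.52). The Ercc1 exons overlap those of Polr1g on the opposite strand, itself called lower (-0.65), and whether reads were counted by strand is not given in the sources used here.

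**Figure D2:**
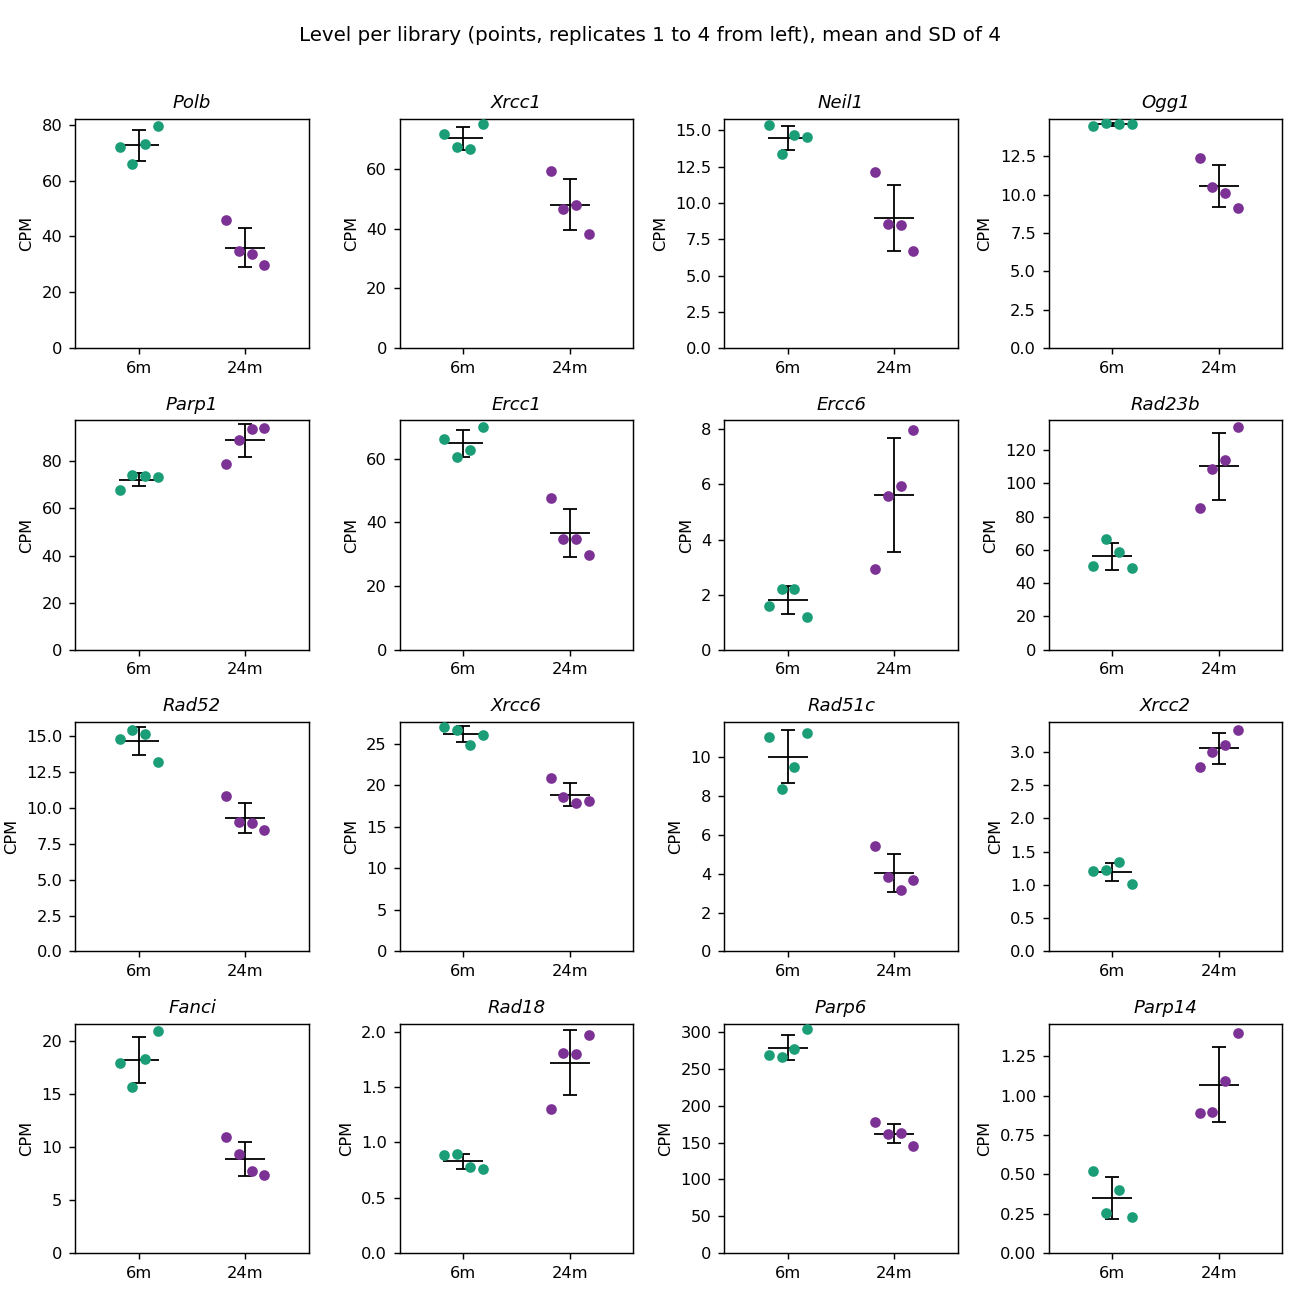
CPM (vertical axis, from 0) in each of the 4 libraries per age (points, replicates 1 to 4 from left) for 16 repair genes, with mean and SD as bars. In all 16 genes the 6m and 24m points do not overlap; Polb drops from 65.8 to 79.6 CPM in 6m to 29.9 to 45.9 CPM in 24m, while Ercc6 climbs from 1.20 to 2.22 CPM to 2.92 to 7.99 CPM.

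Mismatch repair genes differed in direction. None of 6 tested members was called higher and 2 were called lower, Msh5 among them (33.3%, against 18.3% of all genes, beside 25.3% higher), with a median of -0.15 that turned to 0.07 by library totals and, with the length trend removed, the GC trend removed or quantile-normalised DESeq2, stood at -0.49, -0.31 and -0.32 with 3 called lower in each. With no filter on low counts the list gains Msh4 (0 to 6 counts per library) as a further gene, and its median was 0.27. No member was called lower without 6m replicate 1 or without 24m replicate 2, 1 was without 24m replicate 3, and without 24m replicate 1 there were 3 called lower and 1 higher. Msh6 and Msh3, which recognise mismatches, had positive values that did not pass, Msh6 at 0.34 ± 0.16 (SE) and Msh3 at 0.45 ± 0.21 (SE), as did Mlh3 at 0.26 ± 0.12 (SE), and Msh3 was called higher without 24m replicate 1 (0.60) or by library totals (0.67), where Msh6 (0.57) and Mlh3 (0.48) passed on adjusted p alone. With the length trend removed Msh3 and Mlh3 had negative values that did not pass (-0.06 and -0.12). Msh5, a mainly meiotic relative, stood at 1.92 ± 0.411 CPM at 6m against 1.03 ± 0.415 CPM at 24m (SD, n = 4 per age), and its libraries overlapped (log2 fold change -0.89 ± 0.28 (SE), edgeR adjusted p = 0.02). The Msh5 call was lost without 6m replicate 1 (edgeR adjusted p = 0.0639) or 24m replicate 2 (0.0558), within a range of 0.000476 to 0.0639 over its alternatives.

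No end joining gene was called among 6 tested (43.6% of all genes were), although the Ku subunits passed on adjusted p. Xrcc6 (Ku70) measured 27.0, 26.6, 24.8 and 26.1 CPM in 6m, then 20.9, 18.5, 17.9 and 18.1 CPM in 24m (log2 fold change -0.47 ± 0.08 (SE), edgeR adjusted p = 0.00111). Xrcc5 (Ku80), the other subunit of the ring that caps broken ends, measured 28, 26.5, 27.4 and 25.8 CPM in 6m, then 22.2, 19.4, 18.9 and 20.8 CPM in 24m (log2 fold change -0.40 ± 0.08 (SE), edgeR adjusted p = 0.00242). On the TMM scale every 24m library was below every 6m library in both genes, with a reduction smaller than the threshold. Xrcc5 did not pass by library totals (-0.19, edgeR adjusted p = 0.0701) or with the length trend removed (-0.17, edgeR adjusted p = 0.0987), and Xrcc6 was called lower by quantile-normalised DESeq2 (-0.61). Poll, the gap-filling polymerase and the most abundant of the 6 per kilobase in 6m (8.72 CPM), was at 33.4 ± 4.09 CPM at 6m against 24.5 ± 4.92 CPM at 24m (SD, n = 4 per age) (log2 fold change -0.45 ± 0.15 (SE), edgeR adjusted p = 0.0234), and did not pass by library totals (-0.24, edgeR adjusted p = 0.105). The final ligation complex did not pass: Xrcc4 was at -0.30 ± 0.13 (SE) and Lig4, its ligase, at 0.29 ± 0.27 (SE), with overlapping libraries in both, although Xrcc4 was called lower with the length trend removed (-0.70, edgeR adjusted p = 0.000419). Parp3, which assists end joining, was at 0.37 ± 0.15 (SE) and did not pass either, but passed on adjusted p alone by library totals (0.58) and with the length or GC trend removed (0.52 and 0.51). The median was -0.35, and it stayed negative under every scaling tried (-0.53 to -0.13), with 2 members called lower by quantile-normalised DESeq2.

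Homologous recombination held the largest fall among all members, that of Rad51c (the lowest log2 fold change of the 71 tested), beside a rise of Xrcc2. Of 12 tested members 1 was called higher (Xrcc2, 8.33%, against 25.3% of all genes) and 2 lower (Rad51c and Rad52, 16.7%, against 18.3%). Negative values were found in 10 of the 12, passing or not (8389 of all 16730 genes), with a median of -0.20 that turned to 0.02 by library totals. Rad51c (ENSMUSG00000007646, chr11:87267471-87295780, minus strand), a subunit of the complexes that assist strand exchange, had 11.1, 8.37, 9.49 and 11.2 CPM in 6m, then 5.43, 3.83, 3.17 and 3.67 CPM in 24m. It fell to 0.401 of the 6m level (log2 fold change -1.32 ± 0.18 (SE), edgeR adjusted p = 0.000288), with no overlap. Xrcc2 (ENSMUSG00000028933, chr5:25802020-25910827, minus strand), of the same protein family, had 1.20, 1.23, 1.34 and 1.01 CPM in 6m, then 2.77, 3.00, 3.11 and 3.34 CPM in 24m. It rose 2.55-fold (log2 fold change 1.35 ± 0.14 (SE), edgeR adjusted p = 7.63e-05), on 67 to 87 counts per 6m library and 240 to 291 per 24m library. Rad52, which anneals single strands, was at 14.8, 15.4, 15.2 and 13.2 CPM in 6m, then 10.8, 9.01, 8.99 and 8.44 CPM in 24m, likewise without overlap (log2 fold change -0.65 ± 0.11 (SE), edgeR adjusted p = 0.000823), and the call was lost by library totals (-0.44). Rad50, of the complex that senses and trims ends, was at 0.30 ± 0.17 (SE), and Rad51d, the most abundant member of the list per kilobase in 6m (2.97 CPM), at -0.13 ± 0.09 (SE). Xrcc3 was at -0.08, Rad51ap1 at -0.12, Rad51ap2 at -0.27, Rad51b at -0.37 and Rad54b at -0.56, none of which passed, and the motor Rad54l passed on adjusted p alone (-0.57; -0.71 and called without 24m replicate 1). By library totals Rad50 passed on adjusted p alone (0.53), Rad54l did not (-0.37), and Xrcc3, Rad51ap1 and Rad51d had positive values that did not pass (0.14, 0.08 and 0.09). With the length or GC trend removed, 4 members were called lower instead of 2, Rad54b (-0.95 and -0.74) and Rad54l (-0.91 and -0.69) being added. Rad51d passed on adjusted p alone with the length trend removed (-0.33, edgeR adjusted p = 0.0199).

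Fanconi anaemia genes had negative values in 9 of 10 cases, passing or not (8389 of all 16730 genes had negative values). Called lower were 3 of 10 (Fanci, Fanca, Fancl; 30%, against 18.3% of all genes) and called higher 1 (Fancm; 10%, against 25.3%), with 5 lower and 1 higher by adjusted p alone (29.9% and 32.7% of all genes) and a median of -0.46 that kept its sign under every alternative (-0.59 to -0.24); with the GC trend removed 5 were called lower and none higher. Fanci (ENSMUSG00000039187, chr7:79041677-79100027, plus strand), which forms the clamp with FANCD2, had 17.9, 15.6, 18.3 and 21.0 CPM in 6m, then 11, 9.30, 7.78 and 7.37 CPM in 24m. It fell without overlap (log2 fold change -1.04 ± 0.15 (SE), edgeR adjusted p = 0.000347). Fanca (ENSMUSG00000032815, chr8:123993038-124045331, minus strand), a core complex subunit, had 22.6, 18.7, 21.3 and 24.9 CPM in 6m, then 13.4, 13.3, 12 and 10.3 CPM in 24m (log2 fold change -0.84 ± 0.12 (SE), edgeR adjusted p = 0.0004). Fancl, the ubiquitin ligase of the core complex, was at 6.36, 5.64, 6.63 and 5.14 CPM in 6m, then 3.98, 3.78, 3.84 and 3.83 CPM in 24m (log2 fold change -0.62 ± 0.12 (SE), edgeR adjusted p = 0.00141). The aged libraries of Fancl were almost equal, and the call was lost without 6m replicate 3 (-0.57), by library totals (-0.41) and with the length trend removed (-0.53). Fancd2, the ubiquitinated partner of FANCI, passed on adjusted p alone at 4.38 ± 0.664 CPM at 6m against 3.15 ± 0.200 CPM at 24m (SD, n = 4 per age) (log2 fold change -0.47 ± 0.14 (SE), edgeR adjusted p = 0.0125), and Fance, the most abundant of the list per kilobase in 6m (15 CPM), did likewise (log2 fold change -0.45 ± 0.15 (SE), edgeR adjusted p = 0.0225), passing the fold threshold without 24m replicate 1 (-0.60). Fancd2 was called lower with the length trend removed (-0.85), with the GC trend removed (-0.61) and by quantile-normalised DESeq2 (-0.82), but did not pass by library totals (-0.26, edgeR adjusted p = 0.168). Fance did not pass by library totals (-0.24) or with the length or GC trend removed (-0.19 in both). Fancb, Fancc, Fancf and Fancg lay between -0.47 and -0.11 and did not pass, but Fancc was called lower with the length trend removed (-0.72) and Fancb with the GC trend removed (-0.70). The sign of Fancf turned by library totals (0.11), with the GC trend removed (0.12) and with the length trend removed, where it passed on adjusted p alone (0.51, edgeR adjusted p = 0.00749). Fancm (ENSMUSG00000055884, chr12:65122377-65178832, plus strand), the translocase that anchors the core complex, had 3.23, 2.62, 2.72 and 1.92 CPM in 6m, then 3.18, 3.89, 3.85 and 4.90 CPM in 24m. Its ages overlapped (log2 fold change 0.59 ± 0.19 (SE), edgeR adjusted p = 0.0197), and its call was lost without 6m replicate 4 (0.47) or 24m replicate 4 (0.47), with the length trend removed (0.23), with the GC trend removed (0.41), by quantile-normalised DESeq2 (0.25) and with the replicate number as a block (0.59, edgeR adjusted p = 0.0541). Beside these replication-linked lists, of 11 tested markers of dividing cells 1 was called higher and 3 lower (25.3% and 18.3% of all genes). The marker sum was 26.3 to 32.4 CPM in 6m and 27.2 to 39.1 CPM in 24m, most of it from Mcm2 (mean 7.93 and 10.7 CPM) and Mcm5 (16.5 and 16.8 CPM), neither of them called. Mki67 averaged 0.374 and 0.277 CPM, and no marker was at 0 in any library. The part of these markers in the repair values was not tested.

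Promoter sequences were compared for members that moved within 1 pathway or family. RefSeq promoter entries (table of build GRCm38.p6) matched 53 of the 73 members by symbol, and each printed stretch was placed by exact match in GRCm39. The 250 bases before each start were searched on both strands for letters of an E2F site (TTTNNCGC), an NRF1 site (GCGCATGC), a cyclic AMP response element (TGACGTCA), an interferon regulatory factor site (GAAANNGAA) and a CCAAT box (CCAAT); the ends of the E2F and NRF1 letters can share bases. E2F letters were present in 15.1% of the 53 members and 4.94% of all 27025 genes in the table, NRF1 letters in 15.1% and 2.56%, the cyclic AMP element in 1.89% and 1.77%, interferon factor letters in 15.1% and 8.18%, and CCAAT in 45.3% and 37.5%. Among members with an entry, 9 were called higher and 9 lower; E2F letters were in 0 and 1 of them, NRF1 letters in 1 and 2, interferon factor letters in 2 and 1, and CCAAT in 4 and 2. These matches are letters in a window, given as a description. The stretches of 120 bases below show the strongest faller (Rad51c), the 2 Fanconi genes of opposite direction that both carry the NRF1 letters (Fanci and Fancm) and a riser of the PARP family with interferon factor letters (Parp11), with the matched letters in capitals. They lie at chr11:87295333-87295452 on the minus strand, chr7:79041845-79041964 on the plus strand, chr12:65122226-65122345 on the plus strand and chr6:127423683-127423802 on the plus strand, all read 5′ to 3′ towards the gene; the RefSeq starts of Rad51c, Fanci and Parp11 lie inside the longer GENCODE gene extents.
Rad51c: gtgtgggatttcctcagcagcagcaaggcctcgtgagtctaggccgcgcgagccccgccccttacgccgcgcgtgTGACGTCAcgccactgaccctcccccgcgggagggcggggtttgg
Fanci: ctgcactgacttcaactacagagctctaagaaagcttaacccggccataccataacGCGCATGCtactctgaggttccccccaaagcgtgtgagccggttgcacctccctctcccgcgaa
Fancm: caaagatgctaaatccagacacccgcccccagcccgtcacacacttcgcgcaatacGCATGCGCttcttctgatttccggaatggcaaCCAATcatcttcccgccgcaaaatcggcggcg
Parp11: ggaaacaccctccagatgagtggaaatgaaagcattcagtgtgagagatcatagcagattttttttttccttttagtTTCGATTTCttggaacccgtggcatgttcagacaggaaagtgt

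The Rad51c stretch ends at the start site and holds a whole cyclic AMP response element beginning 45 bases before it, the only one among the 53 members. In Fanci the NRF1 letters begin 185 bases before the start, and in Fancm they begin 95 bases before it, with a CCAAT box at 63. In Parp11 the interferon factor letters, read on the opposite strand, begin 43 bases before the start.

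Translesion synthesis, in which specialised polymerases copy past damage, had 2 of 4 members called higher (25.3% of all genes) and a median of 0.58, or 1 of 4 called higher with the length or GC trend removed. Rad18 (ENSMUSG00000030254, chr6:112592603-112673665, minus strand), the ubiquitin ligase that marks PCNA to recruit these polymerases, had 0.884, 0.891, 0.780 and 0.757 CPM in 6m, then 1.30, 1.81, 1.80 and 1.97 CPM in 24m. It rose 2.07-fold with no overlap (log2 fold change 1.05 ± 0.17 (SE), edgeR adjusted p = 0.000726), on 47 to 63 counts per 6m library and 135 to 172 per 24m library. Polk, a polymerase for bulky minor-groove lesions, was at 1.34, 1.85, 1.51 and 1.10 CPM in 6m, then 1.44, 2.71, 2.47 and 3.02 CPM in 24m, with overlap through 24m replicate 1 (log2 fold change 0.73 ± 0.25 (SE), edgeR adjusted p = 0.0271). The Polk call was lost in 6 of the 8 fits with 1 library left out (on removal of 6m replicate 1, 3 or 4 or of 24m replicate 2, 3 or 4; edgeR adjusted p 0.0516 to 0.0752, and 0.000998 to 0.103 over its alternatives). It was also lost with the length trend removed (0.59, edgeR adjusted p = 0.0515), with the GC trend removed (0.50) and by quantile-normalised DESeq2 (0.41). Exons of Polk overlap Cert1 on the opposite strand, which was itself called higher (1.91). Polh, which copies past ultraviolet damage, passed on adjusted p alone (log2 fold change 0.43 ± 0.14 (SE), edgeR adjusted p = 0.023; 0.66 and called by library totals, but 0.20 and 0.27 without passing once the length or GC trend was removed), and Poli, the most abundant of the 4 per kilobase in 6m (1.92 CPM), had a negative value below the fold threshold (log2 fold change -0.36 ± 0.12 (SE), edgeR adjusted p = 0.0204), which was called by quantile-normalised DESeq2 (-0.65) and did not pass by library totals (-0.14).

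The PARP family outside base excision repair, enzymes that mostly attach single ADP-ribose units, had 4 members called higher (Parp14, Parp11, Parp4, Parp12) and 1 lower (Parp6) among 9 tested, or 44.4% and 11.1%, against 25.3% and 18.3% of all genes. Its median of 0.25 was positive under all alternatives except quantile-normalised DESeq2 (-0.06), which called 1 member higher, and 2 were called higher with the length trend removed. Parp14 (ENSMUSG00000034422, chr16:35653231-35692003, minus strand), known to respond to interferon, had 0.518, 0.255, 0.398 and 0.227 CPM in 6m, then 0.888, 0.899, 1.09 and 1.40 CPM in 24m. It rose 3.06-fold without overlap (log2 fold change 1.61 ± 0.29 (SE), edgeR adjusted p = 0.00109), on 15 to 34 counts per 6m library and 72 to 122 per 24m library. Parp12, another interferon-responsive member, measured 7.94, 6.85, 7.10 and 7.34 CPM in 6m, then 13.8, 10.6, 11 and 10.4 CPM in 24m (log2 fold change 0.65 ± 0.12 (SE), edgeR adjusted p = 0.00132). The highest value of Parp12 was in 24m replicate 1, and the call was lost without that library (0.56) and by quantile-normalised DESeq2 (0.36). Parp11 (ENSMUSG00000037997, chr6:127423483-127491198, plus strand), a mono-ADP-ribosyltransferase, was at 3.05, 3.73, 3.18 and 3.46 CPM in 6m, then 5.33, 6.05, 6.34 and 7.28 CPM in 24m (log2 fold change 0.90 ± 0.13 (SE), edgeR adjusted p = 0.000419). Parp4, the vault-particle enzyme, was at 5.0, 4.87, 5.51 and 4.45 CPM in 6m, then 6.40, 9.50, 7.94 and 10.3 CPM in 24m (log2 fold change 0.78 ± 0.16 (SE), edgeR adjusted p = 0.00213). Neither overlapped between ages, and with the length trend removed Parp11 stood at 0.47 and Parp4 at 0.50, below the threshold, as with quantile-normalised DESeq2 (0.54 and 0.44). Parp6 (ENSMUSG00000025237, chr9:59524447-59557822, plus strand), at 28.1 CPM per kilobase the most abundant of all 71 members in 6m, had 268, 266, 277 and 304 CPM in 6m, then 178, 162, 163 and 146 CPM in 24m. It fell to 0.581 of the 6m level with no overlap and small spread (log2 fold change -0.78 ± 0.09 (SE), edgeR adjusted p = 0.000102), but by library totals it fell by 0.57 on the log2 scale, under the threshold, which ended the call. Parp9, Parp16, Parp10 and Parp8 did not pass (0.25, 0.15, 0.12 and -0.10); by library totals Parp9 and Parp16 passed on adjusted p alone (0.47 and 0.36) and Parp8 was at 0.12, while with the length trend removed Parp8 passed on adjusted p alone (-0.52). Beside these values, 8 of 12 interferon-response genes were called higher and none lower (25.3% and 18.3% of all genes; median 1.09), with a sum of 42.2 to 56.1 CPM in 6m and 70.6 to 111 CPM in 24m, the highest in 24m replicate 1 and none of the 12 at 0; their part in the PARP values was not tested.

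The symbol rule also took in 6 tested genes related to repair by name or by family, 3 of them called higher and none lower (50% and 0%, against 25.3% and 18.3% of all genes). Rad21 (ENSMUSG00000022314, chr15:51825636-51855179, minus strand), the cohesin subunit that closes the ring around DNA, had 27.1, 34.4, 31.2 and 22.9 CPM in 6m, then 47.0, 62.3, 60.1 and 80.8 CPM in 24m. It rose 2.16-fold without overlap (log2 fold change 1.11 ± 0.18 (SE), edgeR adjusted p = 0.000573). Rad54l2, a chromatin-remodelling ATPase, measured 4.37, 4.70, 4.79 and 4.68 CPM in 6m, then 4.58, 9.67, 11.3 and 14.8 CPM in 24m. Of its aged libraries only 24m replicate 1 lay within the 6m range, and the other 3 lay above it (log2 fold change 1.12 ± 0.29 (SE), edgeR adjusted p = 0.00742). Rad21l, the meiotic form of the cohesin subunit, averaged 0.202 ± 0.113 CPM at 6m against 0.419 ± 0.0928 CPM at 24m (SD, n = 4 per age) on 7 to 43 counts per library, with overlap (log2 fold change 1.06 ± 0.36 (SE), edgeR adjusted p = 0.0263). Its call was lost in 5 of 8 fits with 1 library left out (on removal of 6m replicate 1, 2 or 4 or of 24m replicate 3 or 4; edgeR adjusted p 0.0591 to 0.0734, and 0.00437 to 0.0734 over its alternatives). Rad17, the loader of the checkpoint clamp, passed on adjusted p alone with a negative value (-0.41), and was called lower with the length trend removed (-0.71) or the GC trend removed (-0.63), while by library totals it did not pass (-0.19). The helicase relatives Ercc6l2 (0.41) and Ercc6l (0.07) did not pass; Ercc6l2 was called higher by library totals (0.64) and had a negative value with the length trend removed (-0.13).

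**Figure D3:**
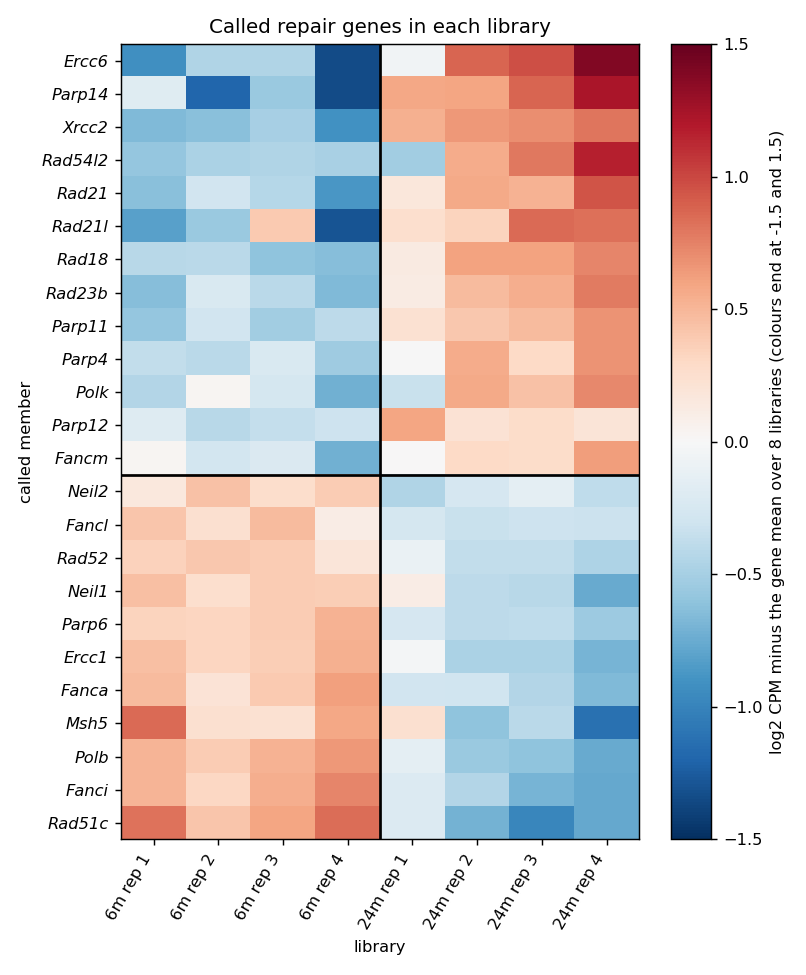
Log2 CPM of 24 of the 25 called repair genes (rows) minus each gene's mean over the 8 libraries (columns), red above and blue below the mean, with lines between ages and between directions. The 24m replicate 1 column lies nearest to 6m in 12 of the 13 genes called higher and 11 of the 12 called lower, over all 25.

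Ratios between partners of 1 complex do not depend on library scaling, and 6 pairs, picked after single-gene values were seen, are given as log2 ratios of CPM per kilobase (mean ± SD, n = 4 per age) with no test. Ercc1 over its nuclease partner Ercc4 went from 2.25 ± 0.07 in 6m to 1.29 ± 0.31 in 24m, without overlap. Xrcc1 over Lig3 went from 2.50 ± 0.09 in 6m to 1.80 ± 0.37 in 24m, and Rad51c over its dimer partner Xrcc3 from -0.37 ± 0.26 in 6m to -1.62 ± 0.53 in 24m, again without overlap. The Ku pair, Xrcc5 over Xrcc6, stayed between 0.53 and 0.75 in all 8 libraries (from 0.59 ± 0.07 in 6m to 0.66 ± 0.06 in 24m). Xrcc4 over Lig4 (from -0.45 ± 0.17 in 6m to -0.98 ± 0.45 in 24m) and Fanci over Fancd2 (from 3.03 ± 0.29 in 6m to 2.44 ± 0.33 in 24m) overlapped between ages.

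Repair genes that rose were mostly those of low level, as were all genes that rose. Members called higher had a median 6m level of 0.251 CPM per kilobase, those called lower 2.59, and those not called 1.70, against 0.616, 6.40 and 2.13 over all genes, with Rad21 (6.61) and Rad23b (9.53) as abundant exceptions among the risers. Across the 71 members the Spearman correlation of fold change was -0.37 with 6m level, 0.10 with exonic length, 0.24 with gene span and -0.14 with GC content. Across the 16677 tested genes with annotation these were -0.35, 0.42, 0.43 and -0.21. The points share libraries, and the level is part of the fold change, so these are descriptions across genes, which are not independent replicates. Exonic length had a median of 9581 bases in members called higher and 6684.5 bases in those called lower, against 7970 and 3446 bases in all genes called higher and lower. With the length trend removed, 12.7% of members were called higher and 25.4% lower, against 22.7% and 15% of all genes.

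**Figure D4:**
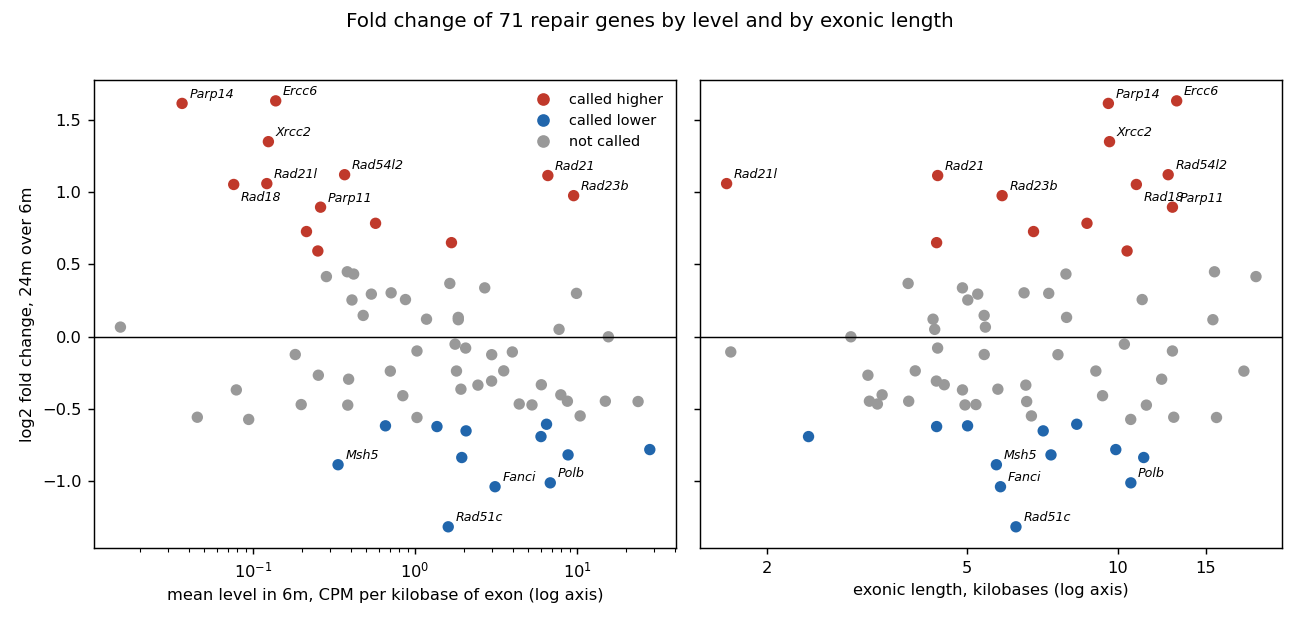
Log2 fold change (24m over 6m, vertical axis) of 71 repair genes against mean 6m level in CPM per kilobase (left, log axis) and exonic length in kilobases (right, log axis), with the called members of larger fold change named. Most red points lie at the low end of the level axis (median 0.251 against 2.59 for blue), while the length panel shows little trend (Spearman 0.10).

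The summed level of the members depended on the scaling. By library totals their counts summed to 1391 to 1443 CPM in 6m and 1342 to 1450 CPM in 24m, which overlap. On the TMM scale the sums were 1485 to 1568 CPM in 6m and 1277 to 1340 CPM in 24m, which do not.

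Other genes of the same pathways, 91 listed beside the members and 90 tested (Brip1 was below the filter), gave 11 called higher (12.2%, against 25.3% of all genes) and 17 called lower (18.9%, against 18.3% of all genes), with a median of -0.10. The tankyrases Tnks and Tnks2, PARP-family enzymes under another name, rose most (2.84 ± 0.36 (SE) and 2.29 ± 0.35 (SE)). Hus1, a checkpoint clamp subunit, and Atm, the kinase that signals double-strand breaks, also rose (1.83 ± 0.24 (SE) and 1.31 ± 0.30 (SE)). The strongest falls were in Polq, the polymerase of alternative end joining (-1.28 ± 0.20 (SE)), Cetn2, a partner of XPC (-1.27 ± 0.10 (SE)), and Sem1, a small cofactor of BRCA2 (-1.25 ± 0.11 (SE)). Brca2, a mediator of recombination, fell from 8.41 ± 0.534 to 4.23 ± 0.492 CPM (SD, n = 4 per age; log2 fold change -0.99 ± 0.12 (SE), edgeR adjusted p = 0.000146). Prkdc, the kinase that Ku recruits, and Apex1, the abasic-site nuclease, passed on adjusted p alone (-0.54 and -0.35), Prkdc passing the fold threshold without 6m replicate 4 (-0.59), with the length trend removed (-0.95) or the GC trend removed (-0.73) and Apex1 changing sign to 0.25 with the length trend removed. By library totals Prkdc stood at -0.32 (edgeR adjusted p = 0.0321) and Apex1 did not pass (-0.14, edgeR adjusted p = 0.124). Brca1 (-0.20), Trp53 (-0.19), Xpa (0.17) and Xpc (-0.03) did not pass. On adjusted p alone Brca1 passed with the length trend removed (-0.49), Trp53 with the length trend removed (-0.38) or without 24m replicate 1 (-0.27), and Xpa by library totals (0.39). Over its alternatives Xpc ranged from -0.20 to 0.19 with adjusted p (edgeR, DESeq2 or limma-voom) of 0.00646 to 0.939, and so passed in part of them. The lists are small and are to be read against those 2 shares of all genes: base excision had 2 called higher and 3 lower of 15, nucleotide excision 0 and 5 of 17, mismatch repair 0 and 0 of 3, end joining 0 and 2 of 7, recombination 2 and 3 of 15, Fanconi 1 and 1 of 7, translesion 0 and 1 of 3, damage signalling 3 and 0 of 14, direct reversal 0 and 2 of 3, and ADP-ribose turnover 3 and 0 of 6.

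Markers of brain and blood cell types moved as well, and their part in the repair values was not tested. Against 25.3% and 18.3% of all genes, called higher and lower were 7 and 1 of 10 astrocyte genes (sum 3001 to 3931 CPM in 6m, 3015 to 3979 CPM in 24m), 3 and 1 of 10 neuronal genes, 1 and 0 of 10 oligodendrocyte genes (3481 to 4344 and 3743 to 4351 CPM), 4 and 0 of 6 precursor genes (171 to 214 and 247 to 287 CPM) and 3 and 0 of 12 microglial genes (759 to 838 and 748 to 1094 CPM). The same counts were 2 and 3 of 10 for endothelial genes (86.6 to 125 and 55.2 to 81.2 CPM) and 3 and 0 of 6 for choroid plexus genes (1780 to 3205 and 825 to 2259 CPM). Most of the astrocyte sum came from Aldoc (mean 2507 CPM in 6m and 2057 CPM in 24m) and most of the choroid plexus sum from Ttr (2452 and 1416 CPM), neither of them called. Of 6 tested B cell and plasma cell genes 2 were called higher, their sum reaching 1160 CPM in 24m replicate 1 against 69.3 to 76.5 CPM in 6m and 45.7 CPM in the lowest 24m library, and Ms4a1 was at 0 in at least 1 library. Exons of 47 of the 73 members, and of 15 of the 25 called ones, overlap a gene on the opposite strand; among called members Polk, Ercc1 and Fancl overlap a gene called in the same direction (Cert1, Polr1g and Vrk2, the last at -0.63), while Vwa7 opposite Msh5 (0.44), Zfp276 opposite Fanca (-0.30) and Polg opposite Fanci (-0.18) were not called.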

How the data were processed

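Poly(A) RNA sequencing of 8 samples labelled whole brain, 4 per age, was used. The authors trimmed reads with Trim Galore 0.4.11, aligned them to GRCm39 with HISAT2 2.1.0 and assigned them to genes with featureCounts; the deposited values are whole-number counts per gene, not normalised and with no replicates pooled. The strand setting of the counting is not given in the sources used here. Identifiers were matched to a GENCODE annotation of GRCm39 (22281 of 22430; the other 149 held 0.312% of counts). Genes above 5 counts in 4 or more libraries were fitted with edgeR 4.0.16 (R 4.3.3; quasi-likelihood test, TMM, age as the only term), and p-values were adjusted over all 16730 genes. Replicates differed beyond sampling noise (chi-square per degree of freedom 8.43 to 433). The code was tested on simulated data. Alternatives were DESeq2 1.42.0 (also on quantile-normalised counts), limma-voom (limma 3.58.1), other scalings and filters, each library left out, a replicate block, removal of length or GC trends (lowess span 0.3) and no fold threshold. Members and lists were chosen with earlier results of these data known. Genes described singly were every called member, a fixed set of well-known ones, the most abundant of each pathway per kilobase and, outside the members, the 3 highest and 3 lowest called genes with 8 well-known ones; remaining members are given by fold change, except a few genes that are not reported here.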

Additional observations from a re-analysis of the deposited data

Results flagged for a closer look

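Among 100 groups of 4 libraries checked (50 genes at 2 ages), 3 held a library far from the other 3 by Dixon's criterion, and chance alone flags about 1 in 20 such groups. Parp12 stood at 13.8 CPM in 24m replicate 1, above the 10.4 to 11 CPM of the other 3 aged libraries. Brca2 was at 4.96 CPM in the same library, against 3.92 to 4.06 CPM in the others. Parp1 was at 68.0 CPM in 6m replicate 1, below the 73.2 to 74.1 CPM of the other 3 young libraries. In Brca2 the 24m replicate 1 value lay towards the 6m libraries, and in Parp12 it lay away from them.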

How the results depend on the processing

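The 13 members called higher became 8 (11.3%, against 21.4% of all genes) with DESeq2 on quantile-normalised counts. The 12 called lower became 6 by library totals alone (8.45%, against 10.4% of all genes), 22 with quantile-normalised DESeq2 (31% against 23.3%) and 27 with no fold threshold (38% against 29.9%). Of other repair genes, the 11 called higher became 18 by library totals (20%, against 32.6% of all genes). The 17 called lower became 9 by library totals (10% against 10.4%), 27 with quantile-normalised DESeq2 (30% against 23.3%), 27 with the length trend removed and a replicate block (30% against 15.4%), and 35 with no fold threshold (38.9% against 29.9%). Leaving out 1 library gave 10 to 13 members higher and 10 to 15 lower (14.1% to 18.3% and 14.1% to 21.1%). It gave 10 to 12 other genes higher and 15 to 25 lower (11.1% to 13.3% and 16.7% to 27.8%). Of all genes, 23% to 27.8% were then called higher and 15.7% to 21.9% lower. The replicate numbers were not taken as pairs, since libraries of the same number deviated together in only some cases (correlations 0.27, 0.14, 0.08 and -0.35). With the number as a replicate block 12 members were called higher and 13 lower (16.9% and 18.3%), and 11 and 19 other genes (12.2% and 21.1%), against 24.6% and 18.7% of all genes. Of the 50 named genes the block ended the call of Fancm alone (0.59, edgeR adjusted p = 0.0541). Among the 50 named genes, signs reversed in some not called in the reported fit: Lig4 (-0.070), Rad50 (-0.072) and Xpa (-0.084) with quantile-normalised DESeq2; in Rad51d (0.091), Brca1 (0.021), Trp53 (0.019) and Xpc (0.19) by library totals; in Xpc with the GC trend removed (0.077) and without 24m replicate 1 (left-out libraries gave -0.062 to 0.042); and with the length trend removed in Xpa (-0.21, and -0.22 with the block) and Apex1 (0.25, and 0.25 with the block). Of members given by fold change only, none of them called in the reported fit, signs also turned with the length trend removed (Lig3, Ercc3, Ercc4, Mlh3, Msh3, Rad51ap2, Xrcc3, Fancf, Ercc6l2), by library totals (Ercc3, Rad51ap1, Xrcc3, Fancf, Parp8), with the GC trend removed (Ercc3, Xrcc3, Fancf, Ercc6l) and without 24m replicate 1 (Ercc2, Xrcc3, Parp10); their other alternatives are not given here. The cause was not tested. DESeq2 on the counts, limma-voom, RLE factors and no filter changed no call of the 50 named genes. Depth limits the lowest members: Rad21l rested on 7 to 43 counts per library, and Neil3 and Msh4 entered the test only with no filter.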
